A study of Mus musculus with 16 samples.

Results

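The ovaries of female Wnt4 KO embryos at embryonic day 14.5 (E14.5) were compared with the ovaries of wild-type female embryos of the same stage, 2 arrays against 2. These 4 arrays were chosen by the sex, genotype and age given in their labels, out of 16 arrays that also hold ovaries at E12.5 and testes at E12.5 and E14.5, KO and wild type, 2 arrays a group. Each array measured total RNA of dissected and frozen gonads, genotyped by PCR, on an Affymetrix Mouse430_2 array, and the arrays of a group are labelled as biological replicates. The titles call the gonads of males ovaries too; those from males are called testes here. The strain, the Wnt4 allele, whether KO embryos carry it in every cell, and whether an array held 1 embryo or a pool stay unknown from the labels.

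WNT4 is a secreted signalling protein that somatic cells of the fetal ovary make. Together with R-spondin 1 it acts through Frizzled receptors to stabilise beta-catenin, which with TCF/LEF factors switches on target genes, several of which encode inhibitors that damp the pathway. In XX mouse embryos WNT4 is known for its part in the differentiation of pre-granulosa cells, the supporting cells that later surround the oocytes, and for keeping testis features such as steroid-producing cells and a coelomic artery out of the ovary. It is also needed for the Müllerian duct, the precursor of the oviduct and uterus, which runs along the gonad in the mesonephros.

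The sex-linked transcripts matched the labelled sex on all 4 arrays, with one exception in amount. Xist, transcribed from the inactive X chromosome, read 5805 and 4088 in KO ovaries, against 4501 and 4627 in wild-type ovaries. Eif2s3y, on the Y chromosome, read 3.70 and 3.67 in KO ovaries, against 5.05 and 239 in wild-type ovaries. Over Eif2s3y, Kdm5d and Uty, wild-type replicate 2 held 19.9% of the signal of testes, against 0.277% to 0.432% on the other 3 arrays. Results are therefore also given against wild-type replicate 1 alone, where the spread among wild-type ovaries is not measured. RNA quality was alike, with ratios of 3' to 5' control probe signal of 1.11 to 1.16, and the mean intensity of the series' arrays ran from 272 to 288. Foxl2, a transcription factor of pre-granulosa cells, read 176 and 193 in KO ovaries, against 437 and 184 in wild-type ovaries. All 4 were far above the 4 testis arrays, which read 7.76 to 22.7. In whole gonads fewer cells of a type and less RNA per cell cannot be told apart.

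Of 12332 genes tested, 67 changed in KO ovaries (limma on log2 of intensity plus 4, Benjamini-Hochberg adjusted p under 0.05), which is 0.543% of the genes. Higher in KO were 25 genes (0.203%), and lower were 42 (0.341%). In all 67 the 2 KO arrays did not overlap the 2 wild-type arrays, a pattern that 12.4% of all genes showed upward and 18.8% downward. The count rested on few arrays. It was 25 without KO replicate 1, 17 without KO replicate 2, 38 without wild-type replicate 1 and 119 without wild-type replicate 2. With this last array left out, which carried signal of testes as above, 18 of the 67 lost their call, with adjusted p of 0.0579 to 0.117. They were Wnt4, Osr2, Lzts1, Mecom, Plppr4, Cth, Car14 and Stxbp6 among the falls, and Htr1b, Aspn, Fmo2, Ramp1, Mettl24, Abca9, Spink8, Lrfn5, Ggt5 and Plxnc1 among the rises. Each of the 67 kept its direction in all of these fits, and 9 kept their call in all of them, namely Calb1, Insyn2b, Irx5, Lgr5, Dach2, Grik1 and Runx1, which fell, and Cpa1 and Rtl3, which rose. The kept direction is no check, since arrays that do not overlap fix it in advance. The count also depended on which arrays gave the variance. It was lower with the near-identical wild-type testis E12.5 arrays averaged, and 5 with only the 4 arrays compared. Log2 changes below are KO minus wild type, with their standard errors (SE). Folds are on the scale of intensity plus 4, which understates the change of dim genes.

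Wnt4 RNA itself was reduced but present in KO ovaries. Its brighter probe set read 351 and 302 in KO ovaries, against 1138 and 1150.5 in wild-type ovaries, a log2 change of -1.80 (SE 0.358, adjusted p = 0.0445). A dimmer probe set read 101.1 and 101.5 in KO ovaries, against 513 and 423 in wild-type ovaries. The KO arrays lay below the wild-type arrays with both. Whether these probe sets lie in the deleted part of the gene is unknown from the labels, and what signal remains is no check of the deletion. Without wild-type replicate 2 the adjusted p was 0.106.

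The largest falls were in genes of quite different kinds, from developmental regulators to neural and calcium-binding proteins. Sall1, a zinc finger transcription factor of kidney and urogenital development, read 7.86 and 10.04 in KO ovaries, against 207 and 119 in wild-type ovaries (log2 -3.64, SE 0.492, 12.5-fold lower, adjusted p = 0.00510). Calb1, the calcium-binding protein calbindin, read 22.5 and 21.9 in KO ovaries, against 358 and 265 in wild-type ovaries (log2 -3.57, SE 0.420, adjusted p = 0.00239). In both genes the KO arrays lay far below the lower wild-type array. Insyn2b, named for its relation to inhibitory synapse proteins, read 5.72 and 6.03 in KO ovaries, against 131 and 50.7 in wild-type ovaries, where replicate 1 was the higher. Its KO level was near that of wild-type testes (5.76 and 6.83). Dach2, a transcriptional cofactor, had 8.70 and 12.1 in KO ovaries, against 61.9 and 65.9 in wild-type ovaries, so that the wild-type replicates were nearly alike.

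Grik1, a subunit of kainate-type glutamate receptors, measured 11.6 and 14.9 in KO ovaries, against 72.8 and 53.3 in wild-type ovaries. Smpx, a small muscle protein, measured 50.1 and 36.3 in KO ovaries, against 345 and 146 in wild-type ovaries. The wild-type arrays differed by more in Smpx than in Grik1, again with replicate 1 higher. In 32 of the 42 genes that fell, wild-type replicate 1 was above replicate 2, and in 40 of them the mean of the wild-type testes was below wild-type ovary replicate 1. Tmem132c (log2 -2.38), Lypd6b (-2.34), D630039A03Rik (-1.82), Prcd (-1.80) and Fndc3c1 (-1.79) complete the 15 largest falls. Prcd, a protein first known from photoreceptor discs, had 20.6 and 16.7 in KO ovaries, against 88.2 and 62.6 in wild-type ovaries and 8.49 and 10.5 in wild-type testes. Its KO level was thus between those of the wild-type ovary and the wild-type testis.

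**Figure D1:**
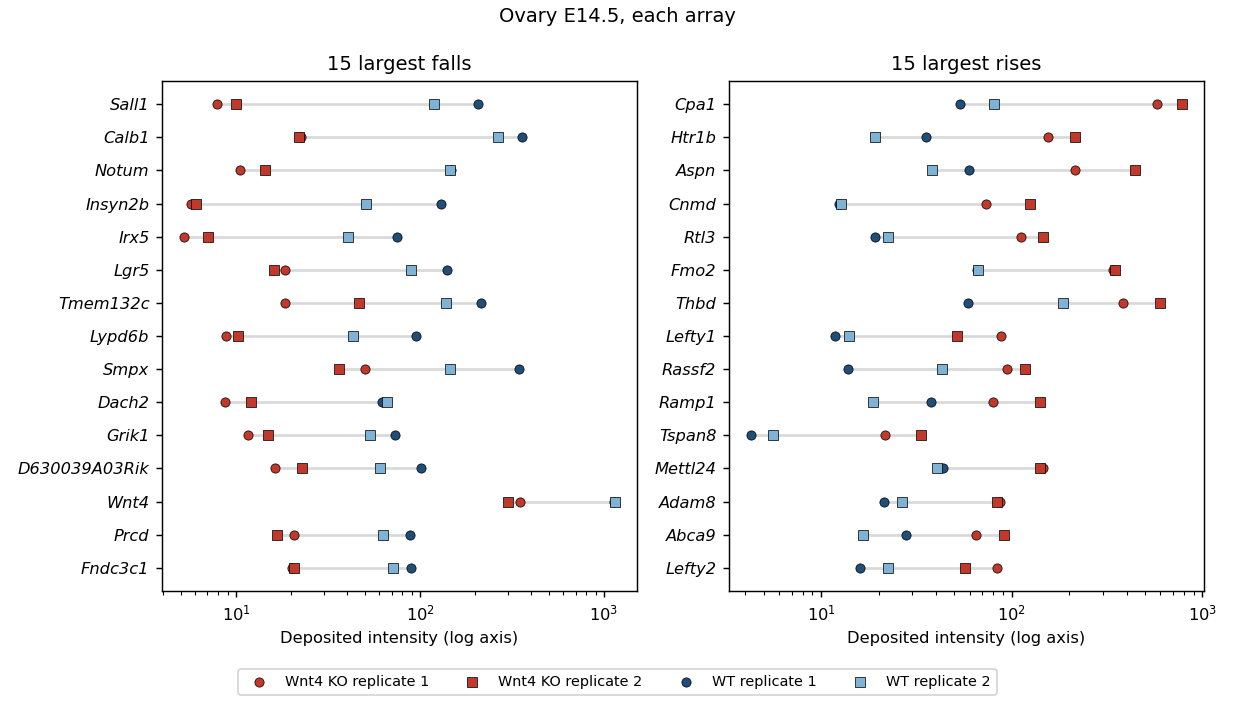
Deposited intensity (log axis) of the 15 genes with the largest falls and the 15 with the largest rises in KO ovaries at E14.5, 1 symbol per array (2 KO, 2 wild type). The KO and wild-type symbols of each gene lie on opposite sides with no overlap, and the wild-type replicates lie farthest apart in genes such as Thbd and Rassf2.

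Genes that beta-catenin is known to switch on as feedback lay lower in KO ovaries, and some of them passed the test. This and the gene lists below were written with earlier results of these data known, so their counts and medians are no independent test. Of the 14 feedback targets tested, 3 fell and none rose, where 0.341% of all genes fell. All 14 had negative log2 changes, with a median of -1.12, against -0.02 over all genes, and 9 had an unadjusted p under 0.05 in that direction, against 3.58% of all genes. Notum, a secreted enzyme that inactivates WNT proteins by removing their lipid, read 10.5 and 14.4 in KO ovaries, against 147 and 146 in wild-type ovaries (log2 -3.21, SE 0.455, adjusted p = 0.00640). Lgr5, a receptor for R-spondins, read 18.6 and 16.1 in KO ovaries, against 140.3 and 89.8 in wild-type ovaries (log2 -2.45, SE 0.282, adjusted p = 0.00235). Nkd2, which binds Dishevelled and restrains WNT signalling, read 12.7 and 17.4 in KO ovaries, against 71.3 and 37.1 in wild-type ovaries (log2 -1.56, adjusted p = 0.0486). In KO ovaries all 3 were near the median intensity of the arrays, which was 9.32 to 10.3 on these 4.

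Other feedback genes did not pass the test. Tnfrsf19, a receptor of the TNF family, had 308 and 452 in KO ovaries, against 1968 and 1379.6 in wild-type ovaries (log2 -2.13, adjusted p = 0.0599). Apcdd1, a membrane inhibitor of WNT binding, had 1475 and 2519 in KO ovaries, against 5568 and 3568 in wild-type ovaries (adjusted p = 0.238). Axin2, a scaffold of the complex that degrades beta-catenin, had 106 and 65.6 in KO ovaries, against 189 and 273 in wild-type ovaries (adjusted p = 0.373). In these 3 genes too the KO arrays did not overlap the wild-type arrays, a pattern that 18.8% of all genes showed downward. In Axin2 wild-type replicate 2 was the higher. Lef1, a partner of beta-catenin on DNA, showed the same order, with 52.8 and 58.6 in KO ovaries, against 113 and 221 in wild-type ovaries (adjusted p = 0.226).

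The ligands, receptors and secreted modulators of the pathway did not move together. Of 23 tested, Wnt4 fell and none rose, and the median log2 change was -0.0044. Rspo1, the R-spondin of the fetal ovary, had 622 and 663 in KO ovaries, against 450.3 and 309.6 in wild-type ovaries (log2 0.78, adjusted p = 0.632). Sfrp2, a secreted Frizzled-related protein that binds WNTs, had 616 and 659.7 in KO ovaries, against 866 and 854 in wild-type ovaries (log2 -0.43, adjusted p = 0.797). Neither passed. The arrays of the 2 genotypes did not overlap in either gene, a pattern that 12.4% of all genes showed upward and 18.8% downward.

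Pre-granulosa genes fell in part. Of 13 tested, 4 fell and none rose, where 0.341% of all genes fell. This list too was written with earlier results known. The median log2 change was -1.35, against -0.02 over all genes, and 11 were negative. Irx5, an Iroquois homeobox factor of the fetal ovary, read 5.198 and 7.08 in KO ovaries, against 75.1 and 40.5 in wild-type ovaries (log2 -2.56, SE 0.289, adjusted p = 0.00235). That KO level was near the level in wild-type testes (4.79 and 5.11). Runx1, a transcription factor of supporting cells, read 19.12 and 18.1 in KO ovaries, against 61.8 and 56.1 in wild-type ovaries (log2 -1.48, adjusted p = 0.00239). Msx1, a homeobox factor, read 37.8 and 29.6 in KO ovaries, against 113 and 109 in wild-type ovaries (log2 -1.62, adjusted p = 0.0112). Lgr5, also in this group, is given above.

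The other pre-granulosa genes did not pass, and Foxl2, named above, was one of them (log2 -0.62, adjusted p = 1.000), with wild-type replicate 2 between the KO arrays. Irx3, the neighbour and relative of Irx5, had 566 and 469 in KO ovaries, against 1618 and 998 in wild-type ovaries (log2 -1.30, adjusted p = 0.888). Fst, follistatin, which binds and blocks activin, had 182 and 341 in KO ovaries, against 962 and 681 in wild-type ovaries (log2 -1.68, adjusted p = 0.359). Bmp2, a secreted growth factor, had 39.2 and 52.3 in KO ovaries, against 148 and 99.6 in wild-type ovaries (log2 -1.35, adjusted p = 0.346). All 3 were lower on both KO arrays than on both wild-type arrays, as were 18.8% of all genes. The 15 genes of activin, inhibin and BMP signalling, to which Fst and Bmp2 also belong, had none past the test and a median of -0.13.

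Genes of the mesonephros and genital ducts, tissue that a dissected gonad can carry with it, were lower in KO ovaries. Of 10 tested, 3 fell and none rose, where 0.341% of all genes fell, in a list again written with earlier results known. All 10 had negative log2 changes, with a median of -0.81, against -0.02 over all genes. Sall1 and Calb1 were among them. The third was Pax8, a paired box factor of kidney and duct epithelium, which read 6.39 and 7.79 in KO ovaries, against 18.1 and 19.7 in wild-type ovaries (log2 -1.05, adjusted p = 0.00878). Emx2, a homeobox factor of the urogenital ridge, had 614 and 641 in KO ovaries, against 1339 and 1027 in wild-type ovaries and did not pass (adjusted p = 0.313). The summed intensity of the 10 genes was 1099 and 1483 in KO ovaries, against 2738 and 2425 in wild-type ovaries. Emx2 alone gave 614 and 641 of these sums in KO ovaries, and 1339 and 1027 in wild-type ovaries. How far the amount of duct or mesonephric tissue in the samples bears on the falls of Calb1, Sall1 and Pax8 was not tested.

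Among the remaining genes that fell, the bright ones were Vcan, the matrix proteoglycan versican, with 1351 and 1617 in KO ovaries, against 3036 and 3129 in wild-type ovaries (log2 -1.06, adjusted p = 0.0121), and Mbnl3, an RNA-binding regulator of splicing. Mbnl3 had 734 and 729.9 in KO ovaries, against 1703 and 1371 in wild-type ovaries (log2 -1.06). Stxbp6, a SNARE-binding protein, had 284 and 319 in KO ovaries, against 574 and 533 in wild-type ovaries. In these 3 bright genes the genotypes differed by more than the spread within either. Osr2, a zinc finger factor, had 110.0 and 161 in KO ovaries, against 435 and 429.8 in wild-type ovaries. Mecom, a zinc finger transcription factor, had 82.0 and 130.02 in KO ovaries, against 276 and 271 in wild-type ovaries. Scd1, a stearoyl-CoA desaturase, had 27.9 and 34.1 in KO ovaries, against 104 and 89.3 in wild-type ovaries. The wild-type arrays agreed closely in Osr2 and Mecom, where the KO arrays differed more.

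Dimmer genes that fell were Clic6 (log2 -1.58), Lzts1 (-1.57), Gfra1 (-1.47), Prdm1 (-1.47), Sgpp2 (-1.45), Fam184b (-1.43), Rmst (-1.39), Plppr4 (-1.37), Amph (-1.31), Fgf1 (-1.28) and Trim66 (-1.19). Gfra1, a co-receptor for GDNF, had 5.88 and 7.79 in KO ovaries, against 23.2 and 29.0 in wild-type ovaries. Prdm1, a transcriptional repressor needed for primordial germ cells, had 23.6 and 26.4 in KO ovaries, against 86.0 and 67.6 in wild-type ovaries. Neither overlapped between genotypes. Fgf1, a fibroblast growth factor, had 11.2 and 12.8 in KO ovaries, against 45.2 and 26.4 in wild-type ovaries. The remaining falls were in Pde8b, Cth, Stum, Car14, Ptprr and Dync1i1, with log2 changes of -1.18 for Pde8b to -0.82 for Dync1i1.

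The largest rise in KO ovaries was in Cpa1, carboxypeptidase A1, best known as a digestive enzyme of the pancreas. It read 575 and 783 in KO ovaries, against 53.4 and 80.6 in wild-type ovaries (log2 3.28, SE 0.357, 9.69-fold higher, adjusted p = 0.00235). Wild-type testes read 139 and 246, above wild-type ovaries and below KO ovaries. Other exocrine pancreas genes did not pass the test: of 5 tested, Cpa1 alone passed, Cela3b had 61.8 and 85.8 in KO ovaries, against 24.4 and 25.6 in wild-type ovaries (adjusted p = 0.0674), and Cela1 had 8.17 and 9.71 in KO ovaries, against 17.9 and 16.1 in wild-type ovaries (log2 -0.70). Clps, pancreatic colipase, was at 5.06 and 4.46 in KO ovaries, against 4.32 and 10.1 in wild-type ovaries, below the array median in KO ovaries. The 10 genes of the list on the array, tested or not, summed to 679 and 911 in KO ovaries, against 124 and 162 in wild-type ovaries. In KO ovaries most of the sum came from Cpa1.

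Several of the other large rises were in genes of receptors and matrix. Htr1b, a serotonin receptor, read 154 and 214 in KO ovaries, against 35.5 and 19.2 in wild-type ovaries (log2 2.62, SE 0.415, adjusted p = 0.0112, and 0.0587 without wild-type replicate 2). Aspn, the matrix protein asporin, read 215 and 445 in KO ovaries, against 59.9 and 38.2 in wild-type ovaries (log2 2.59, adjusted p = 0.0300, and 0.117 without wild-type replicate 2). The KO replicates differed more in Aspn than in Htr1b. Cnmd, chondromodulin, a glycoprotein of cartilage that inhibits vessel growth, read 73.1 and 124 in KO ovaries, against 12.4 and 12.8 in wild-type ovaries (log2 2.59, adjusted p = 0.00640). Of 6 cartilage genes tested Cnmd alone passed, and Col2a1, the main cartilage collagen, had 14.2 and 18.2 in KO ovaries, against 11.8 and 16.7 in wild-type ovaries. Of 14 extracellular matrix genes none passed, with a median of 0.04; asporin was not in that list.

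Rtl3, a gene derived from a retrotransposon, read 112 and 147 in KO ovaries, against 19.2 and 22.5 in wild-type ovaries, and had the smallest adjusted p of all genes (log2 2.41, SE 0.242, adjusted p = 0.00191). Fmo2, a flavin-containing monooxygenase, read 341 and 349 in KO ovaries, against 65.8 and 66.4 in wild-type ovaries (log2 2.31, adjusted p = 0.0226, and 0.0684 without wild-type replicate 2). Both pairs of replicates were nearly alike in Fmo2. Thbd, the endothelial anticoagulant receptor thrombomodulin, read 381 and 597 in KO ovaries, against 59.1 and 186 in wild-type ovaries (log2 2.14, SE 0.426, adjusted p = 0.0445). Wild-type testes had 536 and 791, so that KO replicate 2 lay between the testes and KO replicate 1 below them. Thbd alone passed among 15 endothelial genes, whose median was -0.01; Pecam1, an adhesion molecule of endothelium, had 404 and 528 in KO ovaries, against 148 and 393 in wild-type ovaries (adjusted p = 1.000).

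Lefty1 and Lefty2, secreted antagonists of Nodal, rose together. Lefty1 read 88.1 and 51.5 in KO ovaries, against 11.8 and 14.1 in wild-type ovaries (log2 2.08, SE 0.343, adjusted p = 0.0145). Lefty2 read 83.3 and 57.1 in KO ovaries, against 15.999 and 22.5 in wild-type ovaries (log2 1.66, SE 0.307, adjusted p = 0.0263). In both genes KO replicate 1 was above KO replicate 2, and both lay above the wild-type arrays. Wild-type testes had 23.7 and 32.7 for Lefty1 and 99.4 and 108 for Lefty2, so that KO ovaries were above wild-type testes in Lefty1 and below them in Lefty2. The 2 genes are close relatives in sequence, and how far their probe sets share RNA was not tested. Of the 8 genes of male germ cells and Nodal signalling tested, these 2 rose and none fell, where 0.203% of all genes rose; the list median was 0.05.

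Akr1cl, an aldo-keto reductase, was the brightest gene that rose, with 2721 and 2300.2 in KO ovaries, against 603 and 1076 in wild-type ovaries (log2 1.63, SE 0.234, adjusted p = 0.00669). Wild-type testes had 2562 and 1849, near the level of KO ovaries. Ramp1, an accessory protein of the CGRP receptor, had 79.8 and 139.9 in KO ovaries, against 37.8 and 18.6 in wild-type ovaries. Adam8, a membrane metalloproteinase, had 86.7 and 84.0 in KO ovaries, against 21.5 and 26.4 in wild-type ovaries. The KO level of Adam8 was nearly the same on both arrays, whereas Ramp1 varied within both genotypes. Rassf2, a Ras association domain protein, had 94.1 and 117 in KO ovaries, against 13.9 and 42.8 in wild-type ovaries. Tspan8, a tetraspanin, had 21.7 and 33.3 in KO ovaries, against 4.27 and 5.58 in wild-type ovaries, where it was below the array median.

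Mettl24 (log2 1.69) and the transporter gene Abca9 (1.67) complete the 15 largest rises. Plxnc1, a semaphorin receptor, had 872 and 1178 in KO ovaries, against 479 and 469.8 in wild-type ovaries (log2 1.09). Cyp2r1, a vitamin D 25-hydroxylase, had 37.4 and 42.4 in KO ovaries, against 18.0 and 11.6 in wild-type ovaries (log2 1.24). The other rises were in Sstr4 (1.63), Spink8 (1.61), Lrfn5 (1.501), Ggt5 (1.37), Magea5 (1.19), Dmrt2 (1.16) and Magea4 (0.85). Magea4 and Magea5 belong to a family of near-identical genes, so their probe sets may share RNA. Over all 25 genes that rose, the KO mean ran from 13.9 to 2511 and the wild-type mean from 4.93 to 840. Over the 42 that fell, the KO mean ran from 4.197 to 1484 and the wild-type mean from 12.1 to 3082. Most of the genes that fell were dim in KO ovaries, where 6 of 42 had a mean over 100, against 15 of 42 in wild-type ovaries.

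More than 1 probe set bore on 18 of the 67 genes. Their 28 further probe sets past the filter on low values all changed in the same direction as the one used, and 24 of them did not overlap between genotypes. Of all genes tested, 12.4% did not overlap upward and 18.8% downward. The further probe sets read the same RNA on the same arrays by which the genes were called, so their direction is no independent check.

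The 2 wild-type arrays were not alike, and the choice between them turned the picture for germ cell and testis genes. With 1 wild-type array the spread among wild-type ovaries is not measured, and the variance comes from the other groups. Against wild-type replicate 1 alone, the test called 119 genes (0.965%), with 47 higher (0.381%) and 72 lower (0.584%) in KO ovaries. Of the 67 genes called with both arrays, 49 kept their call, 34 of those that fell and 15 of those that rose, and 70 genes were added. Dppa3, a protein of primordial germ cells and oocytes, read 1616 and 1240.1 in KO ovaries, against 15.002 and 1197 in wild-type ovaries. Both KO arrays and wild-type replicate 2 were high, and wild-type replicate 1 was low. Its log2 change was 6.22 against replicate 1 and 0.24 against replicate 2.

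Other genes of early germ cells had the same pattern. Sox2, a pluripotency factor, had 454 and 214 in KO ovaries, against 10.3 and 128 in wild-type ovaries, with a log2 change of 2.86 over both wild-type arrays (adjusted p = 0.136). Pou5f1, its partner OCT4, had 312 and 75.5 in KO ovaries, against 7.40 and 165 in wild-type ovaries (adjusted p = 0.926). Sox2 was higher on both KO arrays than on either wild-type array, whereas Pou5f1 overlapped. Tex19.1, a germ cell gene that restrains retrotransposons, had 992 and 467 in KO ovaries, against 52.7 and 454 in wild-type ovaries, and Dmrt1, a transcription factor of testis and germ cells, had 262 and 162 in KO ovaries, against 35.9 and 251 in wild-type ovaries. Of the 11 genes of germ cells tested, none passed with both wild-type arrays and 3 rose against replicate 1 alone, where 0.381% of all genes rose. Their median was 0.37.

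Genes of meiosis, which germ cells of the ovary enter at about this stage, ran the other way against replicate 1 by their median. Syce3, a synaptonemal complex protein, had 72.5 and 166 in KO ovaries, against 576 and 75.7 in wild-type ovaries, so that replicate 1 stood far above the 3 other arrays. Mei1, needed for meiotic recombination, had 7.31 and 8.65 in KO ovaries, against 23.6 and 10.01 in wild-type ovaries. Spo11, the enzyme that cuts DNA to start recombination, had 47.4 and 75.2 in KO ovaries, against 184 and 28.9 in wild-type ovaries. All 3 fell against replicate 1 alone and did not pass with both arrays. Over the 19 meiosis genes tested, none passed, and the median log2 change was -0.61 against replicate 1 and 0.59 against replicate 2. Their summed intensity was 12205 and 14136 in KO ovaries, against 18285 and 8602 in wild-type ovaries. Both KO arrays lay between the wild-type arrays. The members were mixed: in KO ovaries 3 lay above both wild-type arrays and 1 below both, as did 12.4% and 18.8% of all genes. Rec8, also in the list, had 60.4 and 37.3 in KO ovaries, against 21.8 and 31.7 in wild-type ovaries. Stra8, the gate to meiosis induced by retinoic acid, had 1149 and 1081 in KO ovaries, against 828 and 606 in wild-type ovaries and did not pass (adjusted p = 1.000).

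Genes of testis cells were highest, among the ovaries, in wild-type replicate 2. Over 18 Sertoli cell genes, markers of the supporting cells of the testis, the summed intensity was 931 and 1067 in KO ovaries, against 879 and 3469 in wild-type ovaries and 9265 to 10579 in the 4 testis arrays. Over 7 fetal Leydig cell genes, which make androgens, it was 1990.4 and 2058 in KO ovaries, against 1449.7 and 5204 in wild-type ovaries and 11188 to 18361 in testes. None of the Sertoli or Leydig genes passed with both wild-type arrays. The median change of the Leydig list was 1.43 against replicate 1 and -1.14 against replicate 2; that of the Sertoli list was 0.31 against replicate 1 and -0.54 against replicate 2.

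Against replicate 1, which held little testis RNA, steroid genes were higher in KO ovaries. Cyp11a1, the enzyme that starts steroid synthesis from cholesterol, had 76.0 and 107 in KO ovaries, against 5.50 and 847 in wild-type ovaries (log2 3.31 against replicate 1). Star, which carries cholesterol into mitochondria, had 70.3 and 77.7 in KO ovaries, against 5.83 and 178 in wild-type ovaries (log2 2.99 against replicate 1). Both KO arrays were well under the 4 testis arrays, where Star read 505 to 1072. Inhbb, the beta B subunit of activin and inhibin, had 250.5 and 219 in KO ovaries, against 53.6 and 219.6 in wild-type ovaries. Cyp17a1, the enzyme that makes androgen precursors, had 18.3 and 32.5 in KO ovaries, against 6.58 and 1459 in wild-type ovaries and did not pass either way. Cbln1, a secreted synaptic organiser that fetal testes express, had 214 and 268 in KO ovaries, against 3.85 and 174 in wild-type ovaries. Wild-type testes had 908 and 677. The log2 change of Cbln1 was 4.96 against replicate 1 and 0.45 against replicate 2.

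A mixture of 80.1% wild-type replicate 1 and 19.9% of the mean wild-type testis gives values to set beside replicate 2. That testis mean includes wild-type testis replicate 2, with its 22.7% ovary RNA. For Inhbb the mixture gives 191 and replicate 2 read 220, and for Cbln1 it gives 161 and replicate 2 read 174. For Dppa3 the mixture gives 438, well under the 1197 measured, and for Cyp17a1 it gives 667, against 1459 measured. The meiosis genes sum to 15389.6 in the mixture, against 8602 measured in replicate 2.

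**Figure D2:**
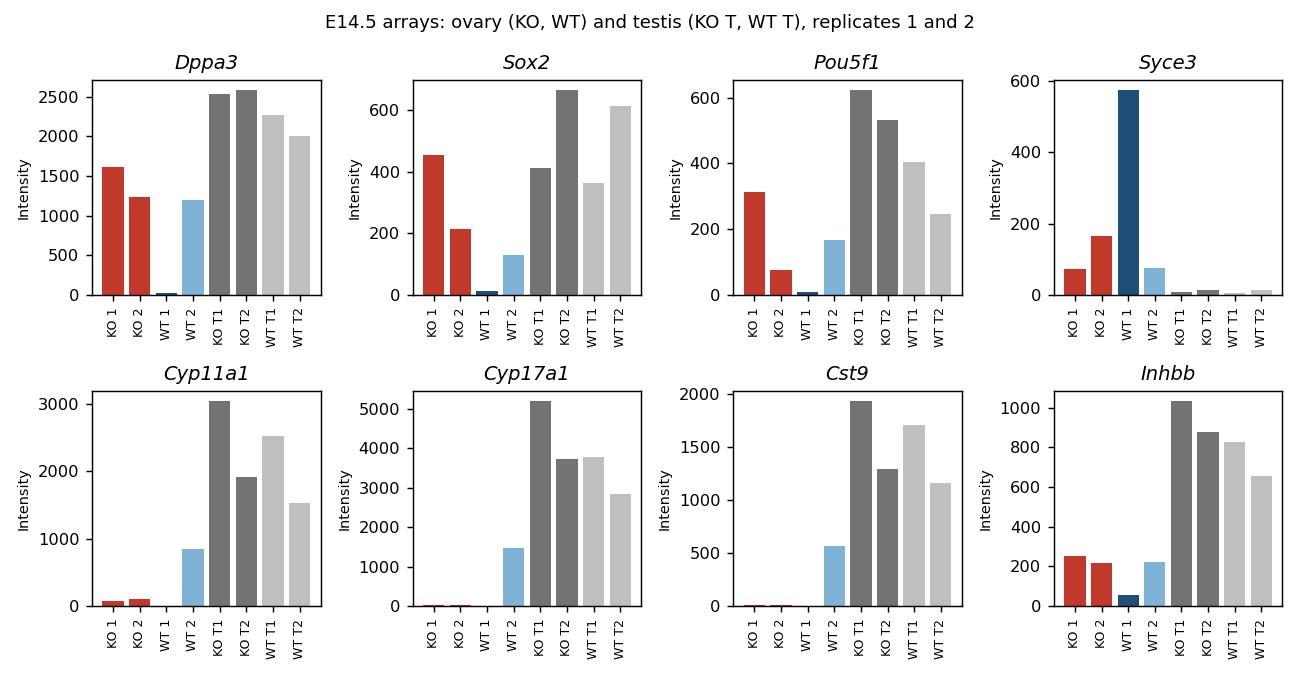
Deposited intensity of 8 germ cell, meiosis and testis genes on each E14.5 array, from left to right 2 KO ovaries, 2 wild-type ovaries, 2 KO testes (KO T) and 2 wild-type testes (WT T). Wild-type ovary replicate 1 is lowest among the ovaries for Dppa3, Sox2 and Pou5f1 and highest for Syce3, and wild-type ovary replicate 2 is the highest ovary for Cyp11a1, Cyp17a1 and Cst9.

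**Figure D3:**
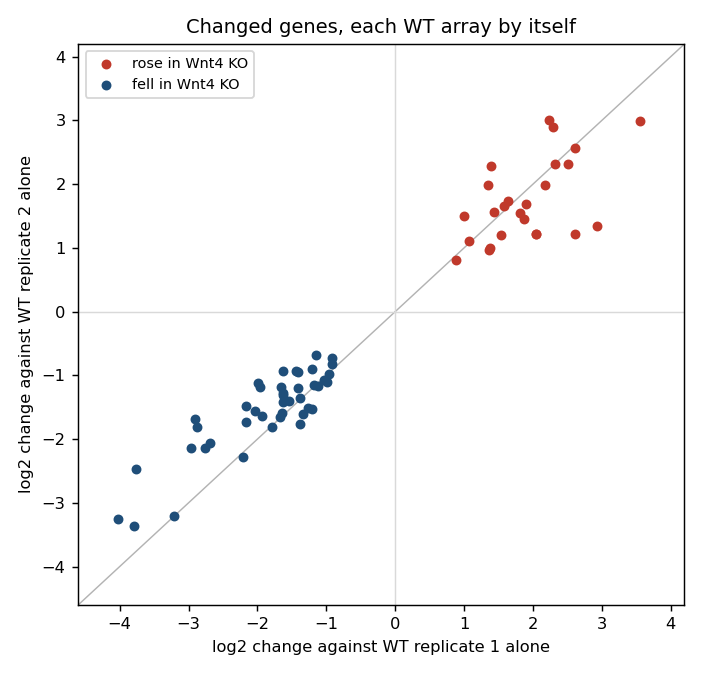
Log2 change of the 67 changed genes when the mean of the KO ovaries is set against wild-type replicate 1 alone (x axis) or replicate 2 alone (y axis), with the line of equality. Every gene keeps its direction, which follows from the lack of overlap between genotypes. Most genes that fell lie above the line, so that they changed less against replicate 2.

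Other cell types that a dissected gonad can hold gave few calls. Interstitium and stroma, surface epithelium, macrophages, erythroid cells, adrenal cortex, chromaffin cells and sympathetic neurons, arterial endothelium, stress and immediate early genes, targets of p53 and proliferation had no gene past the test. In adrenal cortex, whose cells also make steroids, 6 genes were on the array and 4 were tested. The 6 summed to 35.7 and 48.1 in KO ovaries, against 30.3 and 45.0 in wild-type ovaries. Striated muscle genes did not pass, but their median was 0.93 and 5 of 9 had an unadjusted p under 0.05 upward, against 2.17% of all genes. Actc1, cardiac actin, had 173 and 92.1 in KO ovaries, against 29.1 and 24.0 in wild-type ovaries. The 10 muscle genes on the array, tested or not, summed to 442 and 381 in KO ovaries, against 181 and 151 in wild-type ovaries. Liver genes had a median of 1.26 with none of 5 past the test; Afp, alpha-fetoprotein, had 452 and 386 in KO ovaries, against 187 and 90.8 in wild-type ovaries. The part of muscle or liver tissue in the other rises was not tested.

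Retinoic acid genes, which bear on meiosis, had none of 12 past the test. Aldh1a1, a retinaldehyde dehydrogenase, had 559.7 and 763 in KO ovaries, against 1101 and 2229 in wild-type ovaries (log2 -1.26, adjusted p = 0.0828), and testes were higher still, at 3655 to 4298. Rarb, a retinoic acid receptor, had 93.1 and 131 in KO ovaries, against 241 and 189 in wild-type ovaries (adjusted p = 0.307). Hand2, a transcription factor in the list of chromaffin cells and sympathetic neurons, had 235 and 226 in KO ovaries, against 682 and 421 in wild-type ovaries (adjusted p = 0.359). The genotypes did not overlap in these 3 genes, a pattern that 18.8% of all genes showed downward.

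**Figure D4:**
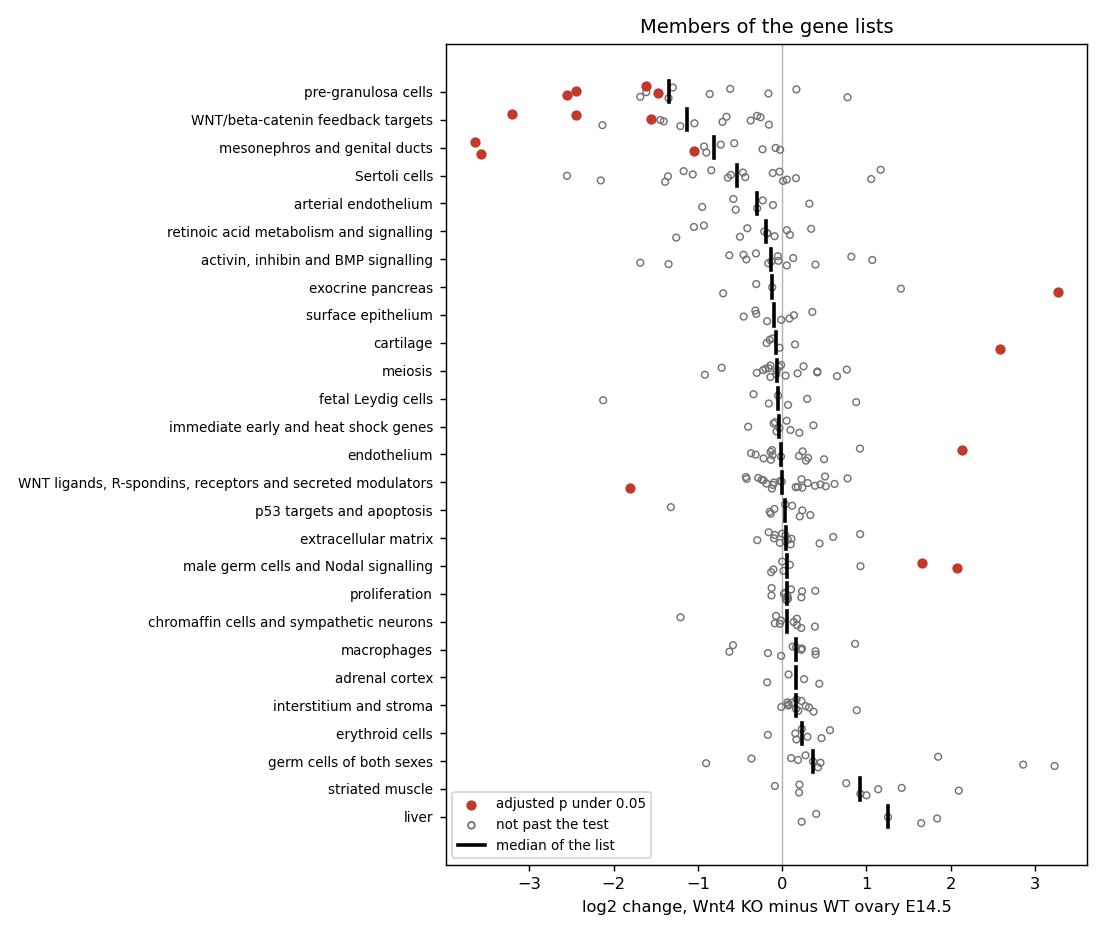
Log2 change (KO minus wild-type ovary E14.5) of each tested gene of the 27 gene lists, filled where it passed the test, with a bar at the median of the list. The medians run from -1.35 in pre-granulosa cells to 1.26 in liver, and genes past the test are few in every list.

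The same genotypes at E12.5 and in testes show how far the changes extend, in arrays that share no sample with these 4. Their tests use the same variance of each gene as the E14.5 ovary test, so their p-values are not independent of the calls. The E12.5 ovary arrays are of lower grade: 3 of them held 6.74% to 18.0% testis RNA and the 3' to 5' ratios ran from 1.09 to 2.27. Of the 42 genes that fell at E14.5, 37 also had negative changes in E12.5 KO ovaries, against 45.1% of all genes, and 30 had an unadjusted p under 0.05 downward, against 3.07%. After adjustment 8 fell at E12.5, against 0.105% of all genes, namely Notum, Insyn2b, Lgr5, Dach2, Grik1, D630039A03Rik, Osr2 and Msx1. Msx1 had 36.3 and 30.7 in E12.5 KO ovaries, against 189 and 246 in E12.5 wild-type ovaries, a larger log2 change (-2.55) than at E14.5 (-1.62). Calb1 was high in both genotypes at E12.5, with 172 and 201 in KO ovaries, against 235 and 380.2 in wild-type ovaries. The test of the difference between the stages did not pass for either (adjusted p = 0.967 for Msx1 and 0.479 for Calb1).

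Of the 25 genes that rose, 23 had positive changes at E12.5, against 54.9% of all genes, 13 had an unadjusted p under 0.05 upward, against 4.94%, and 2 passed after adjustment, against 0.187%. The 2 were Thbd and Lefty2. Thbd had 496 and 377 in E12.5 KO ovaries, against 77.0 and 83.1 in E12.5 wild-type ovaries. Lefty2 had 117 and 158 in E12.5 KO ovaries, against 45.2 and 29.4 in E12.5 wild-type ovaries. Cpa1, the largest rise at E14.5, had 539.9 and 368 in E12.5 KO ovaries, against 269 and 306 in E12.5 wild-type ovaries (log2 0.63).

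In testes at E14.5 the same genes were followed on arrays of which replicate 2 of each genotype carried ovary RNA, 16.4% in KO and 22.7% in wild type by their Xist signal. On KO testis replicate 2 the liver genes also summed to 8075, against 427 to 679 on the other E14.5 testis arrays. The part of ovary RNA or liver signal in the values was not tested. Of the genes that fell in the ovary, 31 had negative changes in KO testes, against 42.2% of all genes, and 6 had an unadjusted p under 0.05 downward, against 0.641%. Of those that rose, 20 had positive changes, against 57.8%, and 4 had an unadjusted p under 0.05, against 0.843%. None passed after adjustment, where 1 gene of 12332 did (0.00811%). The median log2 change of the genes that fell was -1.502 in the E14.5 ovary, -0.75 in the E12.5 ovary and -0.19 in the E14.5 testis, and that of the genes that rose was 1.68, 0.63 and 0.34. The E14.5 ovary values are those by which the genes were called. Wnt4 had 277 and 371 in KO testes, against 753 and 512 in wild-type testes (log2 -0.94).

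No gene passed limma's test of the difference between the ovarian and testicular changes at E14.5, where 295 genes (2.39%) had an unadjusted p under 0.05. Since the changed genes were called on the ovarian change that this contrast also holds, their share among these is not read. The lowest adjusted p among the changed genes was 0.135, shared by Prcd, Irx5, Calb1, Amph and Insyn2b. Without wild-type ovary replicate 2, 16 genes passed, among them Irx5, Insyn2b, Clic6, Prcd, Smpx, Trim66 and Akr1cl of the changed genes. Without wild-type ovary replicate 1, 1 gene passed. No gene passed the test of the difference between E14.5 and E12.5 ovaries, where 557 (4.52%) had an unadjusted p under 0.05; 8 passed without wild-type replicate 2 and 2 without wild-type replicate 1.

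**Figure D5:**
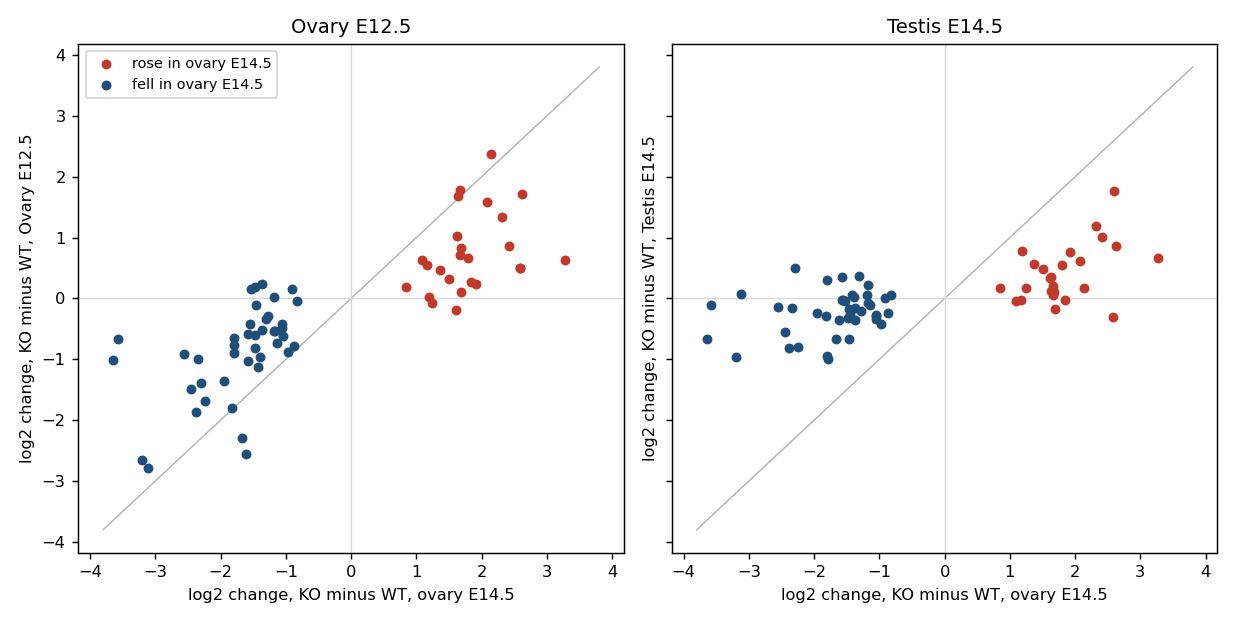
Log2 change of the 67 changed genes in KO ovaries at E14.5 (x axis of both panels) against their change in KO ovaries at E12.5 (left) and KO testes at E14.5 (right), with the line of equality. Points at E12.5 lie mostly in the quadrants of the same sign, and those of testes lie nearer 0.

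Promoter sequences were read for the changed genes because WNT signals reach DNA through TCF/LEF factors. The RefSeq table (GRCm38.p6) gives 250 bases before to 50 after the start of a gene, and it matched 28 of the 42 genes that fell and 20 of the 25 that rose; Calb1, Notum, Irx5 and Lgr5 are not among them. The motif searched, on both strands, was CTTTG followed by any pair drawn from the letters for adenine and thymine, and matches on 1 strand cannot overlap each other. It was found in 2 of 40 promoters of genes that fell (5.0%) and in 1 of 21 of genes that rose (4.76%), against 11.4% of 12749 promoters of all tested genes and 16.9% of 32817 promoters in all. These counts leave out the promoters of 1 chromosome. A match describes letters only, and the absence of one says nothing of the factor at other distances. The 3 promoters with a match and that of the feedback gene Nkd2, which has none, follow with the match in capitals.
Mecom, chr3:30509710-30510009, minus strand: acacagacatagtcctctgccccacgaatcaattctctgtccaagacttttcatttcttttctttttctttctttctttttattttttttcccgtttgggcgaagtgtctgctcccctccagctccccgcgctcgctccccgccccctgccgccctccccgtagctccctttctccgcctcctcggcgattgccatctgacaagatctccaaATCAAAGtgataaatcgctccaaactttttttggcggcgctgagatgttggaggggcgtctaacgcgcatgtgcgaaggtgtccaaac
Trim66, chr7:109508085-109508384, minus strand: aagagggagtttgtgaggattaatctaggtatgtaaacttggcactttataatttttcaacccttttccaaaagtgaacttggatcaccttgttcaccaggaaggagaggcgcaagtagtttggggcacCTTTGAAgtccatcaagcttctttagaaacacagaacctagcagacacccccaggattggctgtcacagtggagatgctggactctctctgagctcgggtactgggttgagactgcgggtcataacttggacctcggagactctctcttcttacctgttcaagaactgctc
Fmo2, chr1:162898444-162898743, minus strand: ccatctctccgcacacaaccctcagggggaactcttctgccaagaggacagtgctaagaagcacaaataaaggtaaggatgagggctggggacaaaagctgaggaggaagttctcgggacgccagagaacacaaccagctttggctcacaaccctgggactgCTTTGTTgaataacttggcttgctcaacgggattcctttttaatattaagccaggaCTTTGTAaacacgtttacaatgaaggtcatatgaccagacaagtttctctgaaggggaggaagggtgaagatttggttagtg
Nkd2, chr13:73847582-73847881, minus strand: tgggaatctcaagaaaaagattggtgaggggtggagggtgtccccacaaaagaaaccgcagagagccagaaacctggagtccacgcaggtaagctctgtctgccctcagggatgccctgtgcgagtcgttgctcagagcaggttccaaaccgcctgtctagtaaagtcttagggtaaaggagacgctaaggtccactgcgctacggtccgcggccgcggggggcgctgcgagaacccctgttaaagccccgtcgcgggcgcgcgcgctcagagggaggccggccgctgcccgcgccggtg
The match begins 38 bases before the start in Mecom, where it lies on the opposite strand, 121 before in Trim66, and 88 and 32 before in Fmo2, the gene of the 3 that rose.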

How the data were processed

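The authors deposited 1 intensity per probe set and array on a linear scale, made with MAS5 per the submitters' processing notes; a MAS5 version is not given there. The 16 arrays of 8 groups hold 45101 probe sets. A platform annotation table named 34945 with 1 gene symbol, 932 with several (left unnamed) and 9160 with none, and 64 control probe sets were left out. Probe sets above the array's median on at least 2 arrays were kept (25596), and the one of highest mean log2 value stood for each symbol, which gave 12332 genes.

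limma 3.58.1 in R 4.3.3 fitted log2(intensity + 4) with a mean per group over all 16 arrays and a variance that follows intensity (degrees of freedom: 8 residual, 5.29 prior); the contrast was KO minus wild-type ovary E14.5, two-sided, Benjamini-Hochberg over all genes, threshold 0.05. Differences from testes and from E12.5 were interaction contrasts of the same fit. The fit was tested on simulated data. With 2 arrays a group, the number of arrays limits precision.

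Members, gene lists and the rule for named genes were chosen with earlier results of these data known. The rule named Wnt4, Xist, Y-linked genes, 5 markers, the 15 largest rises and falls, and per list the called members and up to 4 of smallest p. Other changed genes, feedback targets such as Axin2 and Apcdd1, Foxl2, Irx3, Cyp11a1, Inhbb, Stra8 and the genes called without wild-type replicate 2 were named after their values were seen. Testis RNA in an ovary array is the mean, over Eif2s3y, Kdm5d and Uty, of its signal above the lowest ovary as a share of the mean testis signal above it. Same-numbered KO and wild-type arrays had positively correlated deviations in E14.5 testes (0.581), where both replicate 2 arrays hold ovary RNA. In E12.5 ovaries the correlation was negative (-0.656), and there wild-type replicate 1 (18.0%) and KO replicate 2 (17.7%) held the most testis RNA. No positive correlation was seen in E14.5 ovaries (-0.186) or E12.5 testes (-0.0316). Replicate numbers were therefore not used as pairs. Alternatives covered pseudocount, filter, normalization, the variance model, array choice and testis RNA.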

Additional observations from a re-analysis of the deposited data

How the results depend on the processing

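All 67 changed genes kept their direction in every setting that tested them, and Calb1 and Cpa1 kept their call in all of them. Where 1 of the 4 arrays was left out, the lack of overlap between genotypes fixed the direction in advance. The count of changed genes (67) was 44 under a stricter filter on dim probe sets, 44 with every probe set tested by itself, 44 with the near-identical wild-type testis E12.5 arrays averaged, 23 with only the E14.5 arrays and 5 with only the 4 arrays compared, where fewer samples gave the variance. It was 133 with the opposite-sex RNA share as a covariate, 116 with testis RNA subtracted from wild-type replicate 2 (added after seeing the data), and 22 or 112 at an adjusted p under 0.01 or 0.10. Leaving out 1 ovary array gave 17 to 119. The pairing of arrays by number is not given by the design: with a replicate block 8 genes were called (Calb1, Cnmd, Cpa1, Insyn2b, Irx5, Lgr5, Rtl3 and Sall1). With the crossed pairing, tried after seeing the data, 21 were called. The difference between ovary and testis (0 genes) gave 2 genes with a pseudocount of 16, 6 with 64, 5 with array weights, 9 with the covariate, 13 with testis RNA subtracted and 0 to 16 when 1 array was left out. The difference between stages (0 genes) gave 2 with a pseudocount of 64 and 0 to 8 when 1 array was left out. Without a filter, under other normalizations and variance models, the count of changed genes stayed within 1.5 times of 67; the cause of the larger moves was not tested.

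Among the 120 named genes followed through the settings, log2 changes that reversed belonged to genes that had not passed. When 1 array was left out they ran from -5.68 to 0.58 for Cst9, -3.17 to 3.31 for Cyp11a1, -5.68 to 1.43 for Cyp17a1, -2.80 to 0.47 for Dhh, -0.28 to 2.39 for Dmrt1, -0.47 to 3.10 for Hnrnpl, -1.14 to 1.73 for Hsd3b1, -0.34 to 2.59 for Pfn1, -0.10 to 3.797 for Pou5f1, -1.61 to 0.39 for Sox9, -1.23 to 2.99 for Star and -2.35 to 0.51 for Syce3. Cyp11a1 was at -0.35 and -0.70 with pseudocounts of 16 and 64, Stra8 at -0.15 with the covariate, and Col9a3 at 0.23 with testis RNA subtracted. Spo11 and Boll, which is given below, were not among the 120 and changed sign too. Spo11 was at -1.56 against wild-type replicate 1 alone and 0.96 against replicate 2 alone. The cause was not tested.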

Other observations

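A few genes outside the lists also read low on wild-type replicate 1. Pfn1, the actin-binding protein profilin, read 3457 and 3257 in KO ovaries, against 554 and 4249.9 in wild-type ovaries. Hnrnpl, an RNA-binding protein, read 1182 and 973 in KO ovaries, against 122 and 1485 in wild-type ovaries. Ctnnd1, p120 catenin, read 465 and 471 in KO ovaries, against 215 and 558 in wild-type ovaries. In all 3 wild-type replicate 1 was the lowest of the 4 arrays, and the genes were called without replicate 2 and not with it. These genes were picked after their values were seen.

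Some genes called without replicate 2 and not with both arrays are known from the germ line. Dppa5a, a gene of pluripotent and early germ cells, read 2941 and 1817 in KO ovaries, against 256 and 1638 in wild-type ovaries. Lin28a, an RNA-binding protein of pluripotent cells, read 106 and 59.9 in KO ovaries, against 8.51 and 89.7 in wild-type ovaries. Boll, an RNA-binding protein of meiotic germ cells, read 34.1 and 27.3 in KO ovaries, against 81.5 and 12.1 in wild-type ovaries. Wild-type replicate 1 was the lowest array for Dppa5a and Lin28a and the highest for Boll. Boll changed in opposite directions against the 2 wild-type arrays, with a log2 change of -1.31 without replicate 2 and 1.10 without replicate 1. Sostdc1, a secreted antagonist of BMP and WNT, read 134 and 227 in KO ovaries, against 31.1 and 172 in wild-type ovaries.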
